A study of Homo sapiens with 3 samples.

Results

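The NF-κB family of transcription factors, its inhibitors and its feedback genes were followed in 3 RNA sequencing libraries of the QBC-939 line, which comes from a human cancer of the bile ducts (cholangiocarcinoma). The 10 genes described were chosen by symbol for their roles, with earlier results of these data known. The subunit genes are NFKB1, NFKB2, RELA, RELB and REL, and the inhibitor genes are NFKBIA and NFKBIE. The feedback and survival genes are TNFAIP3, BIRC2 and BIRC3. All 10 were found among the 30923 genes listed, each with 1 row, and all 10 reached an FPKM (fragments scaled to transcript length and library size) of at least 1 in every library. The first library came from cells overexpressing miR-182-5p, the second from cells overexpressing miR-183-5p, and the control library from cells with the treatment labelled oe-NC, called NC here. The labels give the same line (QBC939), cell type (CCA cells) and genotype (WT) for every group, and each group is 1 library of total RNA. There is therefore no replicate error and no test between conditions: the 95% intervals given after values cover counting error only.

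NF-κB proteins bind DNA as pairs. RELA, RELB and REL carry the domains that activate transcription, whereas NFKB1 and NFKB2 encode precursors that are processed to the DNA-binding subunits p50 and p52. IκB proteins such as those encoded by NFKBIA and NFKBIE hold the pairs in the cytoplasm until the IκB kinase complex marks them for destruction, and many genes switched on by NF-κB, NFKBIA, TNFAIP3 and BIRC3 among them, feed back on the pathway. In epithelial cells, bile duct cells included, the pathway is known for responses to inflammatory cytokines and for protection from cell death.

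The overexpressed microRNAs belong to one cluster on chromosome 7. Their mature sequences (RefSeq, GRCh38.p14) are shown because the seed, bases 2 to 8 in capitals, decides which sites in messenger RNAs they can pair with:
hsa-miR-182-5p (chr7:129770447-129770470, minus strand): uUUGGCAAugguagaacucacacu
hsa-miR-183-5p (chr7:129774967-129774988, minus strand): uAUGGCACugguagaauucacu
The seeds carry the same base at 5 of 7 positions. The heptamers complementary to them are TTGCCAA for miR-182-5p and GTGCCAT for miR-183-5p. In the longest 3′ UTR of each gene in GENCODE release 29, 15.1% of 10799 measured genes hold the first heptamer and 12.2% the second. Of the 10 NF-κB genes, RELA holds 1 miR-182-5p heptamer, NFKB1 and REL hold 1 miR-183-5p heptamer each, and the other 7 hold neither. These 3 sites are shown, with the heptamer in capitals:
RELA, miR-182-5p (chr11:65653606-65653612, minus strand): aataaatctgTTGCCAAgctgg
NFKB1, miR-183-5p (chr4:102617039-102617045, plus strand): gtcacttgatGTGCCATtttaaaaaaa
REL, miR-183-5p (chr2:60928269-60928275, plus strand): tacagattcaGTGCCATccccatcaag
The RELA site begins at nucleotide 1975 of a 3′ UTR of 1986, the NFKB1 site at nucleotide 445 of 708 and the REL site at nucleotide 5734 of 9075.

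Promoters are shown for TNFAIP3, BIRC3 and NFKBIA, the members that differed from NC by at least 1.2-fold in the miR-182-5p library, because all 3 are classical NF-κB targets. Each window runs from 250 bases before to 50 bases after a RefSeq start site (GRCh38.p14). Capitals mark matches on either strand to the κB consensus or to a separate 9-letter κB motif, GGNNTTTCC, and such matches can overlap:
TNFAIP3 (chr6:137867009-137867308, plus strand): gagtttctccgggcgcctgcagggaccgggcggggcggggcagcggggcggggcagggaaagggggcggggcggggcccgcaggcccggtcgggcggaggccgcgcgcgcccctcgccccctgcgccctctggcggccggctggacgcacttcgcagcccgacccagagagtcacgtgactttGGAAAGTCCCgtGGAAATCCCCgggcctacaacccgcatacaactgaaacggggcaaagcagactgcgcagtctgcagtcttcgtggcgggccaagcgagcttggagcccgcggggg
BIRC3 (chr11:102317234-102317533, plus strand): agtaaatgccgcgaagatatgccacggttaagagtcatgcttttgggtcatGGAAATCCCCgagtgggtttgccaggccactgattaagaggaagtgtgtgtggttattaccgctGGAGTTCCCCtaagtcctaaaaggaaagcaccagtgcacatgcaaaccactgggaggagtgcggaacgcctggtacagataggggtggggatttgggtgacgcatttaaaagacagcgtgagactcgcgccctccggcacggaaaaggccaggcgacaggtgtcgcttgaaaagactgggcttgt
NFKBIA (chr14:35404700-35404999, minus strand): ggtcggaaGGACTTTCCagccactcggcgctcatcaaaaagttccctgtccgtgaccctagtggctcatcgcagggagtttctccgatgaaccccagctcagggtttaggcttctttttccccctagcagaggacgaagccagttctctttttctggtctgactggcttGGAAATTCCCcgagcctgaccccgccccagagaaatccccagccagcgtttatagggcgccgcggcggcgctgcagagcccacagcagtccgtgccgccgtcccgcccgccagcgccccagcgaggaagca
The TNFAIP3 window holds 2 consensus matches, GGGACTTTCC and GGGGATTTCC as read on the opposite strand, at positions -67 to -58 and -55 to -46. BIRC3 holds GGGGATTTCC at -199 to -190 and GGGGAACTCC at -135 to -126, both on the opposite strand. NFKBIA holds 1 consensus match, GGGAATTTCC at -81 to -72 on the opposite strand, and a further match to the 9-letter motif, GGACTTTCC, at -242 to -234. Among all 35116 windows of this length, 5.91% hold the consensus and 6.26% the 9-letter motif. These shares count windows. The share of genes with a match in any of their windows was not computed. Of the 8 members matched to a window by symbol, 6 hold a consensus match in at least 1 window. Besides the 3 shown these are NFKB1 (GGGAATTTCC, -49 to -40), REL (GGGAAATTCC, -47 to -38) and NFKB2, which holds several, among them GGGGCTTTCC at -78 to -69 of one start site and GGGACTTTCC at -21 to -12 of another. The windows of RELA and BIRC2 hold neither motif.

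**Figure D1:**
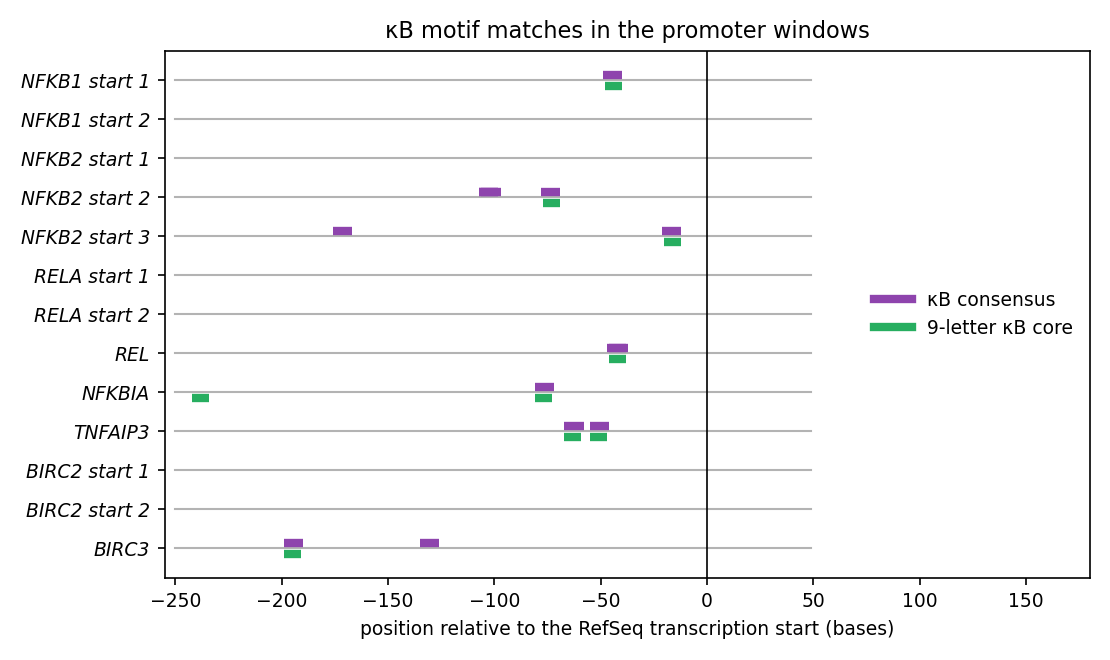
Matches to the κB consensus (purple) and the separate 9-letter motif (green, labelled core) in 13 promoter windows of 8 genes, by position in bases relative to the RefSeq start site, with several starts of a gene in order of genome position. The matches of TNFAIP3, NFKB1 and REL lie between positions -67 and -37, those of BIRC3 farther upstream, and RELA and BIRC2 show none.

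The libraries held between 61709874 (miR-182-5p) and 67427313 (miR-183-5p) counts, with 64516706 in NC. The share of mitochondrially encoded genes was 13.5% in NC, 16.7% with miR-182-5p and 16.1% with miR-183-5p. All 11 bile duct markers of a fixed list (among them KRT19, EPCAM and SOX9) reached an FPKM of at least 1 in every library, with a summed FPKM of 379.8 to 391.9. KRT7 was the lowest of them in NC, at an FPKM of 1.03. Blood cells carry much NF-κB signalling, so their markers were checked too. Of 9 immune markers 6 are listed: LYZ, which epithelial cells also make, had an FPKM of 710.4 to 770.6, the leukocyte marker PTPRC had 0 counts in NC, 9 with miR-182-5p and 0 with miR-183-5p, and without LYZ no listed marker exceeded the FPKM of 1.47 of CD68. No listed hepatocyte or endothelial marker reached an FPKM of 1, and of the fibroblast markers COL1A1 alone did, at 1.81 with miR-182-5p and 1.14 with miR-183-5p against 0.952 in NC. The part of these markers in the results was not tested.

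The level of each gene per transcript length was compared within each library. NFKBIA (ENSG00000100906, chr14:35401513-35404749, minus strand), which encodes IκBα, had the highest FPKM of the 10 genes in every library, at 13.5 in NC. RELA (ENSG00000173039, chr11:65653597-65663090, minus strand), the main activating subunit, followed in NC at 10.3. NFKB2 (ENSG00000077150, chr10:102394110-102402524, plus strand) stood at 8.19, BIRC2 (ENSG00000110330, chr11:102347211-102378670, plus strand) at 7.08 and NFKB1 (ENSG00000109320, chr4:102501331-102617302, plus strand) at 4.78. The other 5 lay close together at the low end. NFKBIE (ENSG00000146232, chr6:44258166-44265788, minus strand) had 2.81, TNFAIP3 (ENSG00000118503, chr6:137867214-137883312, plus strand) 2.61, RELB (ENSG00000104856, chr19:45001449-45038198, plus strand) 2.38, BIRC3 (ENSG00000023445, chr11:102317450-102339403, plus strand) 2.15 and REL (ENSG00000162924, chr2:60881521-60931612, plus strand) 1.31. In NC the neighbours NFKBIE and TNFAIP3, TNFAIP3 and RELB, and RELB and BIRC3 had overlapping counting intervals, and every other neighbouring pair was separated. The order changed in the microRNA libraries: with miR-182-5p TNFAIP3 stood above NFKBIE and RELB, and BIRC3 stood above RELB with an interval that overlapped that of NFKBIE, and with miR-183-5p the intervals of NFKBIA and RELA overlapped at the top. Among genes with an FPKM of at least 1, NFKBIA lay above 77.6% in NC and REL above 6.68%. The length implied by the deposited values was 15.8 kb for REL and 2.85 kb for NFKBIA, and a long gene model lowers the FPKM of REL.

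**Figure D2:**
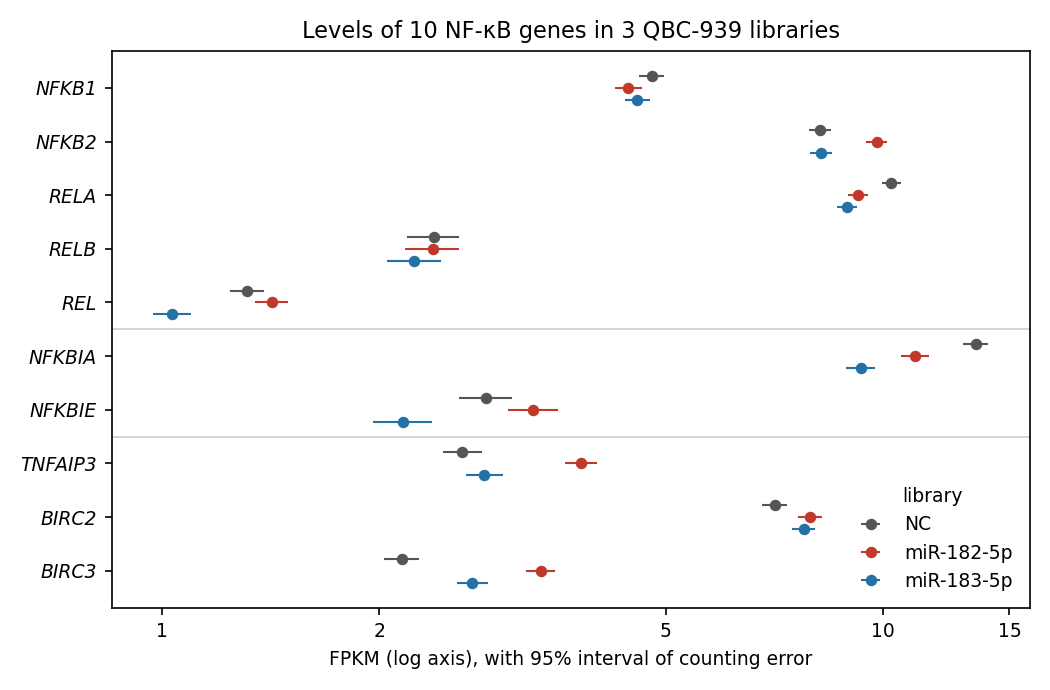
FPKM (log axis) of the 10 genes in each of the 3 libraries, with bars for the 95% interval of counting error and lines that separate subunits, inhibitors, and feedback and survival genes. NFKBIA falls from 13.5 in NC to 9.32 with miR-183-5p, and BIRC3 and TNFAIP3 are highest with miR-182-5p.

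To compare 1 gene between libraries, counts were scaled to the library total (CPM, counts scaled to one common total), and a gene was called higher or lower past 1.2-fold. In the miR-182-5p library 2 of the 10 genes, BIRC3 and TNFAIP3, were called higher than in NC, where 24.3% of 13267 measured genes were, and 1, NFKBIA, was called lower, where 20.5% were. In the miR-183-5p library 1 of 10, BIRC3, was called higher against 11.5% of 12926 genes, and 3, NFKBIA, NFKBIE and REL, were called lower against 11.3%. The miR-182-5p library exceeded the miR-183-5p library in 4 of 10, NFKBIE, REL, TNFAIP3 and BIRC3, against 18.4% of 13308 genes, and was lower in 0 of 10 against 9.7%. Counts this small lie on both sides of these shares, and whether the 10 genes differ as a group was not tested. The comparisons share libraries, so they are not independent of each other. In a bulk library a lower value can come from fewer cells with the transcript or from less of it per cell, which cannot be told apart.

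The share of calls varied with the level of a gene. Among genes with a mean FPKM of 1 to 5, where NFKB1, RELB, REL, NFKBIE, TNFAIP3 and BIRC3 lie, 33.2% were called higher with miR-182-5p and 14.4% lower, with a median ratio of 1.07. At 5 to 20, the range of NFKB2, RELA, NFKBIA and BIRC2, 13.1% were higher and 21.5% lower, with a median of 0.952. With miR-183-5p these shares were 17.7% and 12.6% in the lower range and 3.75% and 9.01% in the upper range. For miR-182-5p against miR-183-5p they were 26.2% and 10.0% in the lower range, which holds every member called there. In the upper range they were 8.13% and 7.31%. The part of this dependence in the values below was not tested. The balance of calls over all genes also moved with the scaling: for miR-182-5p against NC it was 20.7% higher and 26.7% lower with TMM factors, 20.6% and 26.97% with median-of-ratios size factors, 20.2% and 28.1% after rescaling to TPM, and 28.4% and 15.5% with the total taken without mitochondrially encoded genes. For miR-183-5p against NC it was 8.91% and 17.7% after rescaling to TPM, and 14.1% and 8.32% without mitochondrially encoded genes. Between the microRNA libraries it was 13.7% and 16.4% with TMM factors and 13.8% and 16.2% with median-of-ratios size factors.

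Among the subunits, REL alone passed 1.2-fold against NC by library total, with miR-183-5p. The activating RELA had ratios below 1 in both microRNA libraries and the precursor gene NFKB2 a ratio above 1 with miR-182-5p. RELA had 4361 counts in NC (67.6 CPM), 3693 with miR-182-5p (59.8 CPM) and 3902 with miR-183-5p (57.9 CPM). Its ratio to NC was 0.885 (0.847 to 0.925) with miR-182-5p and 0.856 (0.820 to 0.894) with miR-183-5p, so NC was the high library and the other two lay close together. Neither ratio passed 1.2-fold by library total, and 29.9% and 15.3% of measured genes had ratios as low or lower. The ratio with miR-183-5p passed after rescaling to TPM, at 0.821. The single miR-182-5p heptamer of RELA, shown above, lies within the last nucleotides of its 3′ UTR. Which microRNA library had less RELA depended on the scaling: miR-182-5p over miR-183-5p was 1.03 (0.988 to 1.08) by library total and 0.985 with TMM factors.

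NFKB2, whose product p100 acts as an inhibitor until it is cut to p52, had 2997 counts in NC (46.5 CPM), 3385 with miR-182-5p (54.9 CPM) and 3097 with miR-183-5p (45.9 CPM). Here miR-182-5p was the high library, at 1.18 times NC (1.12 to 1.24), and the miR-183-5p library was at 0.989 (0.940 to 1.04). The first ratio did not pass 1.2-fold by library total, and 26.0% of measured genes had one as high. It passed at 1.23 when mitochondrially encoded genes were left out of the total. NFKB1, which encodes p105 and p50, had 2362 counts in NC (36.6 CPM), 2065 with miR-182-5p (33.5 CPM) and 2323 with miR-183-5p (34.5 CPM). Its ratios to NC also stayed within 1.2-fold, at 0.914 (0.861 to 0.970) and 0.941 (0.888 to 0.997). The ratio of NFKB2 to NFKB1 counts inside a library does not depend on the scaling. On FPKM it was 1.71 in NC, 2.21 with miR-182-5p and 1.80 with miR-183-5p, a change by 1.29 (1.196 to 1.396) for miR-182-5p over NC and by 1.05 (0.973 to 1.13) for miR-183-5p over NC.

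RELB, the partner of p52 in the noncanonical branch, had the fewest counts of the subunits and no separable difference: 559 in NC, 525 with miR-182-5p and 542 with miR-183-5p. Its ratios were 0.982 (0.870 to 1.11) and 0.928 (0.823 to 1.05). A 1.2-fold difference from NC in either direction lies outside the first interval, whereas the second extends just past 1.2-fold lower. Summed over the 5 subunit genes, the FPKM was 26.9 in NC, 27.3 with miR-182-5p and 25.0 with miR-183-5p. RELA made up 38.2% of this sum in NC, 33.9% with miR-182-5p and 35.8% with miR-183-5p, and NFKB2 30.4%, 36.0% and 32.9%.

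REL, which encodes c-Rel, a subunit best known from lymphoid cells, had 1338 counts in NC (20.7 CPM), 1368 with miR-182-5p (22.2 CPM) and 1087 with miR-183-5p (16.1 CPM). The miR-183-5p library stood alone at the low end, at 0.777 times NC (0.717 to 0.843), while miR-182-5p was at 1.07 (0.991 to 1.15). However, the end of REL is shared with AC010733 (ENSG00000267520, chr2:60925909-60931610), a gene on the same strand that lies in the 3′ part of REL and covers 5702 bases of it. The REL heptamer for miR-183-5p falls inside this stretch. AC010733 had 157 counts in NC, 256 with miR-182-5p and 694 with miR-183-5p, which is 1.70 (1.39 to 2.09) and 4.23 (3.55 to 5.06) times NC. Summed over both genes the CPM was 23.2 in NC, 26.3 with miR-182-5p and 26.4 with miR-183-5p. The summed ratio to NC was 1.14 (1.06 to 1.22) with miR-182-5p and also 1.14 (1.06 to 1.22) with miR-183-5p, so the low value of REL in the miR-183-5p library turned to a higher one. How reads in the shared stretch were assigned is not given in the sources used here, and the REL ratio for miR-183-5p rests on it.

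**Figure D3:**
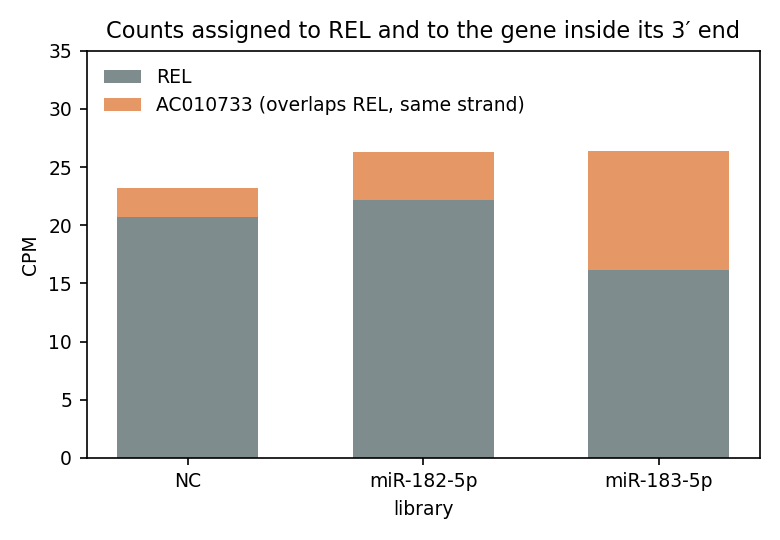
CPM of REL (grey) and of AC010733 (orange), which overlaps its 3′ end on the same strand, stacked for each library. REL is lowest with miR-183-5p at 16.1 CPM, but the stacked bars of the microRNA libraries reach 26.3 and 26.4 CPM, both above the 23.2 CPM of NC.

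The inhibitor genes differed from each other. NFKBIA had 2478 counts in NC (38.4 CPM), 1928 with miR-182-5p (31.2 CPM) and 1768 with miR-183-5p (26.2 CPM). NC was the highest library and miR-183-5p the lowest, and no counting intervals of the ratios to NC met: 0.813 (0.766 to 0.864) with miR-182-5p and 0.683 (0.642 to 0.726) with miR-183-5p. With miR-183-5p 2.88% of measured genes were as low or lower, and with miR-182-5p 17.4%. Between the microRNA libraries the ratio was 1.19 (1.12 to 1.27). With miR-182-5p the call of NFKBIA lay near the threshold and was lost with 2 other ways of forming the ratio, at 0.845 when mitochondrially encoded genes were left out of the total and 0.837 as a ratio of FPKM plus 1. NFKBIA holds neither heptamer in its 3′ UTR of 502 nucleotides.

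NFKBIE, which encodes IκBε, had 565 counts in NC (8.76 CPM), 618 with miR-182-5p (10.0 CPM) and 445 with miR-183-5p (6.60 CPM). The microRNA libraries thus lay on either side of NC, at 1.14 (1.02 to 1.28) with miR-182-5p and 0.754 (0.664 to 0.855) with miR-183-5p. Their ratio to each other, 1.52 (1.34 to 1.72), was the largest of the 10 genes, and 5.58% of measured genes had one as large. Compared within libraries, NFKBIE per NFKBIA was 1.41 (1.23 to 1.60) times as high with miR-182-5p as in NC, and 1.10 (0.959 to 1.27) times with miR-183-5p. The summed FPKM of the 2 inhibitor genes per summed FPKM of the 5 subunit genes was 0.604 in NC, 0.527 with miR-182-5p and 0.459 with miR-183-5p. NFKBIA per RELA, free of the scaling, was 0.919 (0.853 to 0.990) times NC with miR-182-5p and 0.797 (0.739 to 0.860) times NC with miR-183-5p.

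TNFAIP3 encodes A20, a ubiquitin-editing enzyme that dampens signalling from the TNF receptor to the IκB kinases. It had 1021 counts in NC (15.8 CPM), 1406 with miR-182-5p (22.8 CPM) and 1127 with miR-183-5p (16.7 CPM). The miR-182-5p library stood apart at 1.44 times NC (1.33 to 1.56), a ratio that 11.9% of measured genes reached, while miR-183-5p was at 1.06 (0.970 to 1.15). NFKBIA and TNFAIP3, both feedback genes with κB matches near the start site, therefore went opposite ways with miR-182-5p. NFKBIA per TNFAIP3 was 0.565 (0.510 to 0.625) times the NC value with miR-182-5p and 0.646 (0.582 to 0.719) times with miR-183-5p. The antisense gene WAKMAR2, which overlaps the start of TNFAIP3 by 1020 bases, had 9 counts in NC, 43 with miR-182-5p and 64 with miR-183-5p. The opposite-strand neighbours of RELA (RELA-DT, with 58, 104 and 80 counts in that order) and of BIRC3 (AP000942, with 0, 0 and 8) were also far below the genes they overlap.

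BIRC2 and BIRC3 lie next to each other on chromosome 11 and encode the ubiquitin ligases cIAP1 and cIAP2, which act at the TNF receptor and restrain the noncanonical kinase encoded by MAP3K14. BIRC3 had 1256 counts in NC (19.5 CPM), 1847 with miR-182-5p (29.9 CPM) and 1619 with miR-183-5p (24.0 CPM). NC was the lowest library and miR-182-5p the highest, with ratios of 1.54 (1.43 to 1.65) and 1.23 (1.15 to 1.33), reached by 9.29% and 9.62% of measured genes. The call with miR-183-5p was lost as a ratio of FPKM plus 1 (1.17) and after rescaling to TPM (1.18). Between the microRNA libraries BIRC3 was at 1.25 (1.17 to 1.33), a call lost with TMM factors (1.19), median-of-ratios size factors (1.19) and FPKM plus 1 (1.18). BIRC2 had 2493 counts in NC (38.6 CPM), 2626 with miR-182-5p (42.6 CPM) and 2815 with miR-183-5p (41.7 CPM), at 1.10 (1.04 to 1.16) and 1.08 (1.02 to 1.14) times NC. BIRC3 per BIRC2 on FPKM was 0.304 in NC, 0.424 with miR-182-5p and 0.347 with miR-183-5p. This ratio was 1.396 (1.27 to 1.53) times NC with miR-182-5p and 1.14 (1.04 to 1.25) times NC with miR-183-5p, and it differed between the microRNA libraries by 1.22 (1.12 to 1.33). The 2 genes are related in sequence, and how reads that match both were assigned is not given in the sources used here. BIRC3, whose promoter window holds 2 consensus matches, thus differed more than BIRC2, whose windows hold none. This pair does not stand for the other members. With miR-182-5p those with a match were NFKBIA at 0.813, NFKB1 at 0.914, REL at 1.07, NFKB2 at 1.18 and TNFAIP3 at 1.44. RELA, without a match, was at 0.885. A link between match and level was not tested.

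**Figure D4:**
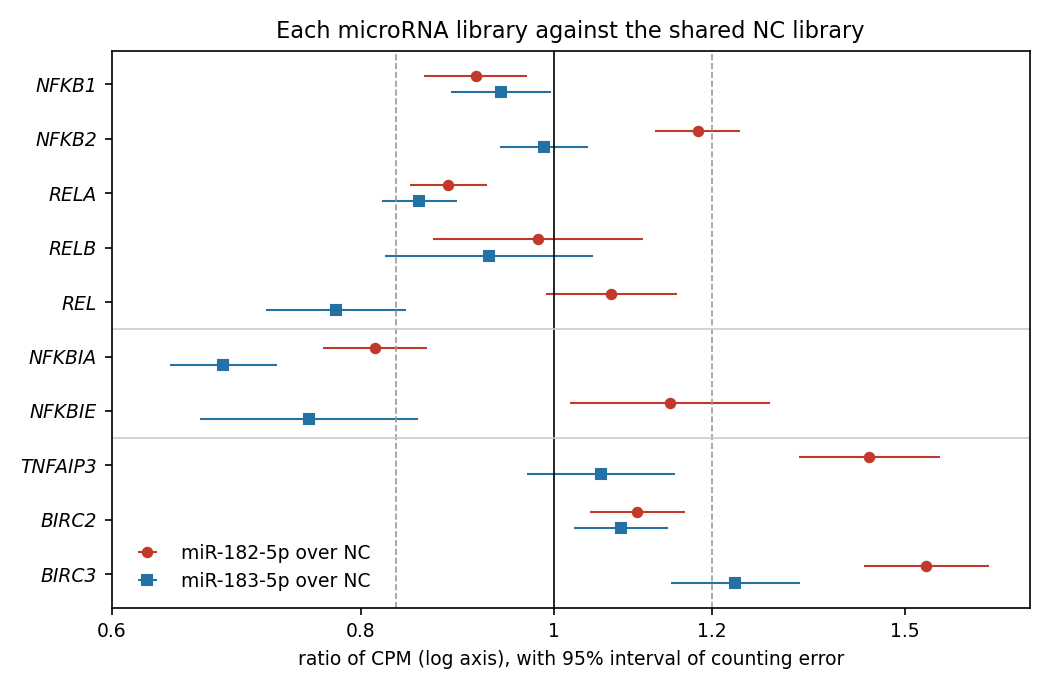
Ratio of CPM to the shared NC library (log axis) for miR-182-5p (red circles) and miR-183-5p (blue squares), with bars for the 95% interval of counting error, a line at 1 and dashed lines at 1.2-fold in either direction. BIRC3 lies past the upper dashed line in both, at 1.54 and 1.23, TNFAIP3 with miR-182-5p alone, and NFKBIA past the lower line in both, at 0.813 and 0.683.

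The rest of the pathway was followed in 7 lists, and their counts are read beside the shares of all genes given above. Of 6 IκB kinase genes, 0 were called higher and 2 lower with miR-182-5p, and 1 higher and 1 lower with miR-183-5p. CHUK, which encodes the kinase IKKα, had 4309 counts in NC, 2909 with miR-182-5p and 3583 with miR-183-5p, and its ratios of 0.706 (0.673 to 0.740) and 0.796 (0.761 to 0.832) were called lower in both. TBK1, a kinase of innate immunity, was at 0.810 (0.770 to 0.852) and 0.902 (0.859 to 0.946). IKBKB, which encodes the catalytic partner IKKβ, went the other way, at 1.14 (1.05 to 1.23) and 1.21 (1.13 to 1.31). The scaffold gene IKBKG was at 0.990 and 1.05, the noncanonical kinase gene MAP3K14 at 0.972 and 0.895, and IKBKE at 0.971 and 1.06, in the same order.

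Of the ligand and receptor genes, 11 of 22 were measured. With miR-182-5p 2 were higher and 2 lower, with a median log2 ratio of 0.03 where all measured genes had -0.0097. TNFRSF10B, a receptor for the death ligand TRAIL, was at 1.25 (1.21 to 1.29) times NC and its ligand gene TNFSF10 at 1.22 (1.11 to 1.34). TNFRSF1B, the second TNF receptor, was at 0.607 (0.544 to 0.676) and the endotoxin receptor TLR4 at 0.805 (0.742 to 0.873). The main TNF receptor gene TNFRSF1A was at 0.926 (0.893 to 0.961), and the death receptor FAS at 1.16 (1.03 to 1.30). With miR-183-5p these ratios were 1.07, 1.06, 0.850, 0.751, 0.874 and 1.41 in the order named, so that FAS was called higher and TLR4 lower there.

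Adaptors and ubiquitin ligases were measured in 20 of 21 cases, of which 1 was higher and 5 lower with miR-182-5p, and 1 was higher and 2 lower with miR-183-5p. The adaptor TRAF5 was at 1.27 (1.22 to 1.33) times NC with miR-182-5p, TRAF6 at 1.14 and SHARPIN, a part of the linear ubiquitin ligase, at 1.12. IRAK1, the kinase below interleukin and Toll-like receptors, was at 0.731 (0.717 to 0.745) and 0.825 (0.810 to 0.840), called lower in both libraries. The ubiquitin-conjugating enzyme UBE2N was at 0.765 (0.740 to 0.791) and RNF31, the catalytic part of the linear ubiquitin ligase, at 0.718 (0.650 to 0.794). RNF31 overlaps another gene on its strand (ENSG00000259529), which had 1688 counts in NC and 2369 with miR-182-5p against 975 and 670 for RNF31.

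Among the other IκB family and nuclear modulators, 2 of 8 were called higher and 2 lower with miR-182-5p, and 1 higher and 0 lower with miR-183-5p. NFKBIZ, the atypical nuclear IκB that is itself a classical target, had 3027 counts in NC, 4644 with miR-182-5p and 4122 with miR-183-5p, at 1.60 (1.53 to 1.68) and 1.30 (1.24 to 1.37) times NC. It overlaps NXPE3 on its strand, which was at 0.901 and 0.882. NFKBID, which encodes another nuclear IκB, was at 1.34 (1.19 to 1.5) and 0.994 (0.882 to 1.12). The lowest were NFKBIL1 at 0.712 (0.634 to 0.798), the Ras-like inhibitor NKIRAS1 at 0.744 (0.664 to 0.833) and NFKBIB, which encodes IκBβ, at 0.838 (0.786 to 0.894), with 0.900, 1.09 and 0.844 in the miR-183-5p library. NFKBIB and NFKBIA were thus below NC in both libraries.

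The other negative regulators included 12 measured genes of 13, with 2 higher and 2 lower with miR-182-5p, and 0 higher and 2 lower with miR-183-5p. The ribonuclease ZC3H12A, which degrades inflammatory messenger RNAs, was at 1.37 (1.30 to 1.44) and 1.09 (1.03 to 1.16), the deubiquitinase OTULIN at 1.2003 and 1.09, and the deubiquitinase CYLD at 1.18 and 1.19. RNF11, a partner of A20, was at 0.762 and 0.757, the A20-binding gene TNIP2 at 0.787 and 0.814, and TRIB3 at 0.881 and 1.04.

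Target genes outside the 10 gave 7 higher and 1 lower of 18 measured with miR-182-5p, and 2 higher and 2 lower with miR-183-5p; the list holds 30 genes. Their median log2 ratio was 0.12 and -0.05, where all measured genes had -0.0097 and -0.03. The stress gene GADD45B, on 122 counts in NC, was at 1.64 (1.30 to 2.07) and 1.58 (1.26 to 2.0001), and TNFAIP2 at 1.55 (1.35 to 1.79) and 1.28 (1.11 to 1.48). CXCL1, a neutrophil-attracting chemokine, had 299 counts in NC, 410 with miR-182-5p and 203 with miR-183-5p, on either side of NC at 1.43 (1.23 to 1.67) and 0.650 (0.541 to 0.779). The urokinase gene PLAU had the lowest ratio of the 18 in both libraries, at 0.528 (0.433 to 0.641) and 0.609 (0.507 to 0.730). GADD45B and TNFAIP2 reached an FPKM of 1 only in the microRNA libraries, with 0.725 and 0.822 in NC. PLAU reached it only in NC, with 0.726 with miR-182-5p and 0.837 with miR-183-5p. These genes thus entered the counts only through the libraries where they were high. BCL2L1, which encodes the survival protein BCL-XL, was at 0.859 and 0.869, and the mitochondrial superoxide dismutase SOD2 at 0.927 and 0.859. NFKBIE and CXCL1 shared one order of the libraries, highest with miR-182-5p and lowest with miR-183-5p. This order was not particular to them, since NFKB2, REL, BIRC7 and other listed genes also had it.

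In the list of other IAP genes and their antagonists, 1 of 6 measured was higher and 2 lower with miR-182-5p, and 0 higher and 1 lower with miR-183-5p. BIRC7, which encodes livin, was on either side of NC at 1.37 (1.25 to 1.5003) and 0.828 (0.749 to 0.916). BIRC6 was at 1.07 and 1.002 and XIAP at 1.05 and 0.978. BIRC5, the mitotic member survivin, was at 0.765 (0.731 to 0.801) and 0.944, and the antagonist genes DIABLO and HTRA2 at 0.832 and 0.886 with miR-182-5p and 1.02 and 0.848 with miR-183-5p. XIAP stands also in the list of adaptors and ubiquitin ligases. Of the pathway genes named, TNFRSF10B, FAS, SHARPIN, RNF31, UBE2N, MAP3K14, IKBKG, NKIRAS1, NFKBIB, BCL2L1, SOD2, DIABLO and HTRA2 overlap a gene with over 100 counts on the opposite strand, and whether the counts used strand is not given in the sources used here.

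**Figure D5:**
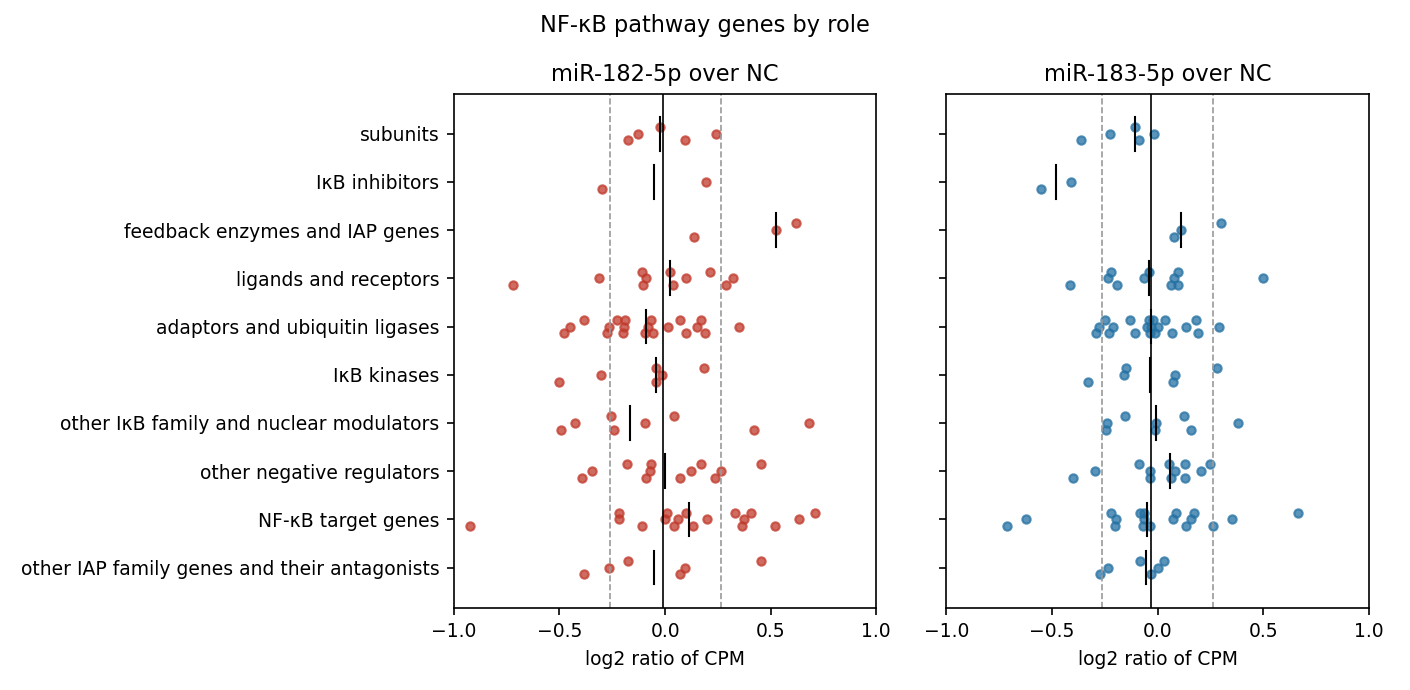
Log2 ratio of CPM to NC for each measured gene (points) of the 3 member groups and 7 pathway lists, with the median of each (short bar), the median of all measured genes (line) and 1.2-fold (dashed lines), for miR-182-5p (left) and miR-183-5p (right). Target genes spread farthest to both sides with miR-182-5p, with a median of 0.12. The ends of that spread, GADD45B and PLAU, reached an FPKM of 1 only in the higher of the libraries compared. Both IκB inhibitors lie below the lower dashed line with miR-183-5p.

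The genes whose pair of ratios to NC was nearest to that of BIRC3, by Euclidean distance on the log2 scale among 4890 genes whose mean FPKM was 5 or more and that overlap no gene on their strand, were MT-TR at 0.016, CAPRIN2 at 0.019 and ZNF550 at 0.019. With only 2 ratios a gene, 55 genes lay within 0.1 of BIRC3. For NFKBIA 6 genes did, the nearest being the pseudogene TMSB4XP8 at 0.019, ABALON at 0.021 and the apoptosis gene BAD at 0.054. TMSB4XP8 can share reads with its parent gene, and ABALON overlaps BCL2L1 on the opposite strand.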

How the data were processed

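Total RNA of QBC-939 cells was extracted with Trizol, per the labels. The submitters' processing notes name cutadapt 1.9 and FastQC and list the build GRCm38, a mouse assembly. The gene identifiers are human Ensembl identifiers: 97.3% occur in GENCODE release 29 (GRCh38), and 91.5% of these have both ends within 1000 bases of it, so coordinates are given as GRCh38. Which aligner and counting program were used, and whether strand was used, is not given in the sources used here. In the deposited file are whole-number gene counts and, per the file headers, FPKM, both made by the authors from 1 library per group. FPKM was used for levels between genes. Ratios between libraries are CPM ratios from the deposited counts, with exact 95% intervals (Clopper-Pearson, conditional on the summed count). Intervals of FPKM are exact Poisson intervals of the counts. Ratios of ratios have exact conditional intervals. With 1 library per group no p-value was computed, and a call is a rule of size, 1.2-fold, over genes that reach FPKM 1 in either library compared.

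The genes, lists and threshold were chosen with earlier results of these data known. Named are all 10 members, all IκB kinases and, from each list, up to 3 genes with the highest and lowest miR-182-5p ratios whose intervals exclude 1. Sites were searched in the longest 3′ UTR of the basic GENCODE transcripts. Python 3.11.15, SciPy 1.17.1, edgeR 4.0.16 (TMM factors) and DESeq2 1.42.0 (median-of-ratios size factors) were used. The ratio intervals and the 1.2-fold call were tried on simulated counts. These held counting error only, so variation between cultures or libraries was not covered. Other scalings, pseudocounts, filters and folds were tried.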

Additional observations from a re-analysis of the deposited data

How the results depend on the processing

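With no replicate, precision is limited by counting alone as far as it can be given, and no paired analysis was possible because each group has 1 library. The number of the 10 genes called depended on the fold and on the filter on low values. At 1.5-fold, 1 gene (BIRC3) was higher and 0 lower with miR-182-5p against NC, where 10.1% and 3.37% of all measured genes were. With miR-183-5p against NC 0 were higher and 0 lower, where 3.91% and 2.61% of all genes were. With miR-182-5p against miR-183-5p 1 (NFKBIE) was higher, where 5.85% of all genes were. At 2-fold all these counts were 0. The shares of all genes were then 3.72% higher and 1.02% lower with miR-182-5p against NC. With miR-183-5p against NC they were 1.75% and 1.06%, and 2.16% were higher with miR-182-5p against miR-183-5p. Limited to a mean FPKM of at least 5, which keeps 4 of the 10, 0 were higher in each of the 3 comparisons. Of all genes kept, 11.9%, 3.45% and 7.46% were higher, in the same order of comparisons. Under this filter 1 (NFKBIA) was lower than NC with miR-183-5p, where 8.96% of all genes kept were. It was also lower with miR-182-5p, where 26.0% were. As a ratio of FPKM plus 1, 0 were lower with miR-182-5p, 0 were higher with miR-183-5p (BIRC3 lost), and 2 were higher between the microRNA libraries. Of all genes 14.6%, 7.86% and 12.2% were, in that order. Rescaled to TPM, 0 were higher with miR-183-5p against NC (BIRC3 lost), where 8.91% of all genes were. Without mitochondrially encoded genes in the total, 0 were lower with miR-182-5p against NC, where 15.5% of all genes were. The other counts stayed within 1.5 times those reported, but some calls were gained. Without mitochondrially encoded genes in the total, NFKB2 was called higher with miR-182-5p against NC (1.23). NFKB2 and NFKBIA were then also called higher with miR-182-5p against miR-183-5p (1.204 and 1.201). Rescaled to TPM, RELA was called lower with miR-183-5p against NC (0.821). Of the 30 ratios of single genes, 30 stayed inside their counting interval with FPKM plus 0.1 and without mitochondrially encoded genes, 29 each with TMM factors, median-of-ratios size factors and TPM, and 27 with FPKM plus 1. An alternative chosen after seeing the data, summing REL with AC010733, turned 2 REL ratios around, to 1.14 for miR-183-5p over NC and 0.996 for miR-182-5p over miR-183-5p.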

Other observations

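Several cytokine and target genes of the pathway lay below an FPKM of 1 in every library and entered no count above. They are given here with their values already known and by no rule. The inducing cytokine TNF had 58 counts in NC, 90 with miR-182-5p and 56 with miR-183-5p, at 1.62 (1.15 to 2.30) and 0.924 (0.628 to 1.36) times NC. IL1B had 6, 27 and 5 counts in the same order, and the lymphotoxin gene LTA 12, 33 and 18. The chemokine gene CCL20 had 37, 88 and 31 counts, at 2.49 (1.68 to 3.76) and 0.802 (0.481 to 1.33). The adaptor and target gene TRAF1 had 113, 185 and 138, at 1.71 (1.35 to 2.18) and 1.17 (0.905 to 1.51). CXCL3 had 45, 45 and 36 counts, at 1.05 (0.676 to 1.62) and 0.765 (0.480 to 1.21) times NC. Others of these lists lay otherwise: IL1A had 15, 10 and 12 counts, CXCL2 12, 18 and 27, VCAM1 0, 4 and 8, and SAA1 3, 0 and 4. Of the 20 listed ligand, receptor and target genes below an FPKM of 1 in every library, 13 had their highest CPM with miR-182-5p, 5 with miR-183-5p and 2 in NC. The same tally over all genes at this level was not made, so these 20 cannot be set against it. A different measure is at hand for 4803 genes with a mean FPKM below 1 and at least 50 counts in the miR-182-5p and NC libraries together. Of these, 56.5% were past 1.2-fold higher with miR-182-5p, with a median ratio of 1.29. Several of the 20 fall below that count limit.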
